A study of Mus musculus with 16 samples.

Results

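Cholesterol and fatty acid synthesis was followed through 34 genes chosen by name as sterol and lipid synthesis genes driven by sterol regulatory element-binding proteins (SREBPs). All 34 were found once among the 56268 genes measured, and all 34 passed the filter of at least 1 FPKM (sequenced fragments, adjusted for the length of the gene and the depth of the library) in at least 4 libraries, which kept 13255 genes. They fall into 6 roles, among them 6 genes of the mevalonate arm, 11 from squalene to cholesterol, and 5 SREBP regulators and sterol transporters. The others are 4 of acetyl-CoA and NADPH metabolism, 3 of fatty acid synthesis and elongation, and 5 desaturases. The figures head the role of acetyl-CoA and NADPH as supply, though its gene Acat2 uses acetyl-CoA.

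RNA was sequenced from colonic epithelial cells of mice in 4 groups of 4 libraries. Control mice had the genotype Villin-Cre, a transgene that expresses Cre recombinase in intestinal epithelium, and knockout (cKO) mice had Rictor Flox with Villin-Cre, so both genotypes carried Cre. Rictor marks mTOR complex 2, a kinase complex that activates AKT. Each genotype was given normal water (control and cKO) or 3% dextran sulfate sodium in the drinking water (control_DSS and cKO_DSS), a polymer that injures the colonic epithelium and causes colitis. The labels used here state no age, strain background, duration of DSS or batch, and do not say that libraries came from separate animals, so p-values measure the spread between these samples. The libraries of control, of cKO and of control_DSS differed among themselves in Y-linked or Xist reads, given below, so their spread is not technical alone. For control_DSS this rests on control_DSS 2 only. In cKO_DSS these reads do not settle the matter, and the spread may be technical.

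SREBPs are membrane-bound transcription factors held in the endoplasmic reticulum by SCAP and the INSIG proteins when sterols are plentiful. When sterols fall, SCAP escorts SREBP to the Golgi, where proteases free its active part, which binds sterol regulatory elements in promoters together with NF-Y, at CCAAT boxes, and Sp1, at GC boxes. SREBP-2 acts mainly on cholesterol genes and SREBP-1c mainly on fatty acid genes, and mTOR and AKT signalling is known to promote SREBP activity. In the intestinal epithelium these enzymes supply membrane lipid to cells that are replaced continually.

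Promoters from 250 bases before to 50 bases after the start site, from RefSeq on GRCm38.p6, are shown for the motifs of SREBP, NF-Y and Sp1 that some of them hold. The table held 27 of the 34 genes and did not give Scd1, Sqle, Scd2, Fdft1, Stard4, Fdps or Fads1. Only the first start site listed for each gene was used, so motifs at any other start are not seen. The first 5 sequences belong to the genes with the smallest p for DSS in control among those in the table, and Insig1 and Hmgcs1, chosen after their values were seen, had the largest falls with DSS in cKO. Capitals mark TCACNCCA (the core of a sterol regulatory element), CCAAT and GGGCGG on either strand, where N is any base. Each sequence is written 5′ to 3′ on the strand of its gene.
Mvd (chr8:122443373-122443672, - strand): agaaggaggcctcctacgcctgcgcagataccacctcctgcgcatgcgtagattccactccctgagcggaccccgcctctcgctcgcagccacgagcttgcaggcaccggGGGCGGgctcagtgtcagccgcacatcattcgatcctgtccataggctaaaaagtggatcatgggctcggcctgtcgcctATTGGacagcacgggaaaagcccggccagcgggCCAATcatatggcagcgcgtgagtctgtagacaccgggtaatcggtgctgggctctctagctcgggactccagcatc
Srebf1 (chr11:60222532-60222831, - strand): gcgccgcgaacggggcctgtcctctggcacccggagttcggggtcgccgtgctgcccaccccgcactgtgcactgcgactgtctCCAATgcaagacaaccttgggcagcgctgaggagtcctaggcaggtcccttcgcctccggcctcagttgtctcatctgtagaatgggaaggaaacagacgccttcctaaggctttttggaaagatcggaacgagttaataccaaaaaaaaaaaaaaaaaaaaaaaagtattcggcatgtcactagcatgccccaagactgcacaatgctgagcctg
Srebf2 (chr15:82147019-82147318, + strand): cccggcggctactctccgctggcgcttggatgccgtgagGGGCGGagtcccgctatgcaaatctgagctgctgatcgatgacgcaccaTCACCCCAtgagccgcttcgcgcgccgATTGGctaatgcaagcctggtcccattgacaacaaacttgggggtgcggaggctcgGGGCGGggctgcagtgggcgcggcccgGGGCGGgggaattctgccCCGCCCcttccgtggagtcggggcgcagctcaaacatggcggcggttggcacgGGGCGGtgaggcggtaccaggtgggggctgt
Fasn (chr11:120824498-120824797, - strand): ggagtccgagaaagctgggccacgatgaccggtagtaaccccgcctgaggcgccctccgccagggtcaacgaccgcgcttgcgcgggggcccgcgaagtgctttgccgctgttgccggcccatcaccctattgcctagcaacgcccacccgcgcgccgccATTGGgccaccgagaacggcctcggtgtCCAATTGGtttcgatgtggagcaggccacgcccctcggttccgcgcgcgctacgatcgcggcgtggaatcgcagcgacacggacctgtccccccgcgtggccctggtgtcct
Elovl6 (chr3:129532136-129532435, + strand): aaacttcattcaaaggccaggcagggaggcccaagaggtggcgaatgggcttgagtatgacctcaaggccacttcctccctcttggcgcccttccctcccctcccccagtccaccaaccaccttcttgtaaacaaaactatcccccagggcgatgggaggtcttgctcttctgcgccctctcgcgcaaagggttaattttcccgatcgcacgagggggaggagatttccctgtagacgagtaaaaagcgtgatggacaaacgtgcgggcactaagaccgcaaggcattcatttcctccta
Insig1 (chr5:28071162-28071461, + strand): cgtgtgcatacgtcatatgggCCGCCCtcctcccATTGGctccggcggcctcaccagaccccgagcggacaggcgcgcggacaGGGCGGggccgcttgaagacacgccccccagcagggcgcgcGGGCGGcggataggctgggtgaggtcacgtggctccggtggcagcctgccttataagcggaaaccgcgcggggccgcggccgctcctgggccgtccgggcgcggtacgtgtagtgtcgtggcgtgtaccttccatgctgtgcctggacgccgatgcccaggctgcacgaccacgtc
Hmgcs1 (chr13:119690101-119690400, + strand): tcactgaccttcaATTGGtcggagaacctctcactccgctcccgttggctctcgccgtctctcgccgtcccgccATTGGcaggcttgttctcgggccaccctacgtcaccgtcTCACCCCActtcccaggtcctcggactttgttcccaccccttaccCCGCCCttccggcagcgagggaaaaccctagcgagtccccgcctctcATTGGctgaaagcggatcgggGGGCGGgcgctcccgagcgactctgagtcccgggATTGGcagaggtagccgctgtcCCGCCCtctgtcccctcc

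The sterol regulatory element core was present in the promoters of Msmo1, Hmgcs1 and Srebf2, 3 of 27 (11.1%), against 4.28% of all 27025 promoters of the same length. CCAAT was present in 20 of 27 (74.1%, against 37.9% of all promoters) and GGGCGG in 22 of 27 (81.5%, against 35.9%). The E-box CANNTG, which SREBP-1 can also bind and which is not in capitals, was present in 18 of 27 (66.7%, against 72.1%). These matches describe letters in a 300-base window, not bound sites. The 27025 promoters were not limited to genes that passed the filter, nor matched for GC content. In the printed set, Srebf2 and Hmgcs1 hold a sterol regulatory element core beside CCAAT and GC boxes, Fasn holds overlapping CCAAT boxes on opposite strands, and Elovl6 holds none of the 3 motifs.

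Reads recovered from the FPKM values came to 13911823 to 16414914 per library. Rictor was 3.14, 3.08, 2.80 and 2.17 FPKM in control 1 to 4 and 2.75, 2.33, 2.57 and 2.22 in cKO on water, and the difference was not called (log2 fold change -0.13 ± 0.12 SE, adjusted p = 0.582). After DSS it was 3.85, 3.69, 2.82 and 4.16 in control_DSS and 2.96, 2.78, 1.92 and 2.36 in cKO_DSS, and again it was not called (log2 fold change -0.40 ± 0.12 SE, adjusted p = 0.0761). The values cover the whole gene, so transcripts lacking only deleted exons still count, and the check of the genotype labels is incomplete. The 10 markers of colonic epithelium summed to 8750 to 11494 FPKM in control, 9531 to 13619 in cKO, 9813 to 10920 in control_DSS and 12794 to 13427 in cKO_DSS. Every cKO_DSS sum thus lay above every control_DSS sum. Abundant markers weigh most in that sum: mean Car1 was 3805 FPKM in control_DSS and 5196 in cKO_DSS, and mean Krt19 1356 and 2085. Of the 10, Krt18 alone was called higher in cKO_DSS than in control_DSS (log2 fold change 0.70, adjusted p = 0.0108). Epcam hardly differed (log2 fold change 0.06), and Slc26a3 alone went the other way, without a call (log2 fold change -0.37, adjusted p = 0.323). Summed fibroblast markers were 2.97 to 4.48 FPKM in control and 11.1 to 13.6 in control_DSS, and 3.94 to 5.67 in cKO and 7.48 to 9.36 in cKO_DSS. Summed monocyte and macrophage markers were 3.90 to 6.77 FPKM over the water libraries and 6.64 to 11.2 over the DSS libraries. That sum hides opposite directions among its 3 markers above the filter. Lyz2 and C1qb were called higher after DSS in each genotype, and mean Lyz2 was 1.67 FPKM for control against 4.91 for control_DSS. Cd68 instead fell, with a call in control (log2 fold change -0.50, adjusted p = 0.0404) and none in cKO (log2 fold change -0.42, adjusted p = 0.116). The 8 adipocyte markers summed to between 1.37 and 5.23 FPKM over all libraries, almost all from Cidec and Lipe, with Adipoq, Lep and Retn at 0 throughout. Reads from Y-linked genes numbered 0 in control 3, cKO 3 and cKO 4, 635 to 1856 in the other water libraries and 2681 to 4533 in the DSS libraries. Xist, the RNA that silences an X chromosome in females, was 33.2 to 105 FPKM in the water libraries, 20.5 in control_DSS 2, and at most 0.0268 in the other DSS libraries. Water and DSS thus differ in these sex-linked levels as well as in treatment. Control 1, 2 and 4, cKO 1 and 2, and control_DSS 2 each held both Y-linked reads and Xist, the signals of both sexes. Whether animals were pooled or RNA was mixed was not tested. Ebp and Nsdhl, given below, lie on the X chromosome. Dbp, a clock-controlled gene, was 7.02 to 28.4 FPKM in 7 water libraries, 1.52 in control 4 and 0.135 to 2.26 in the DSS libraries. The part of these markers in the results below was not tested, except where a fit with the Y-linked level is given.

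More of the 34 genes were lower than higher with DSS in both genotypes. In cKO the genes lower were 5 of 6 in the mevalonate arm and 7 of 11 from squalene to cholesterol. The rest were 3 of 4 of acetyl-CoA and NADPH metabolism and 3 of the other 13. Genes were called at an adjusted p under 0.05 from limma on log2(FPKM + 1), a scale on which fold changes of low genes are understated. In control, 9 of the 34 genes were lower and 2 higher with DSS, against 13.5% of all genes lowered and 15% raised, and the median log2 fold change was -0.19 (-0.01 over all genes). In cKO, 18 of the 34 were lower and 1 higher, against 6.64% of all genes lowered and 8.07% raised, with a median of -0.56 (-0.01 over all genes). All 4 DSS values lay below all 4 water values for 7 of the 34 in control, against 12.8% of all genes, and for 21 of the 34 in cKO, against 8.97%. The falls shared by the genotypes, which have no library in common here, were Mvk, Mvd, Fdps, Lss, Insig1 and Fasn, 66.7% of those in control and 33.3% of those in cKO, and Me1 rose in both. In bulk RNA, fewer cells of a type and less RNA per cell cannot be told apart. A library from whole epithelium therefore gives the mean over its cells.

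Whether DSS acted differently in the genotypes was tested by the interaction, the fold change in cKO minus that in control, and none of the 34 passed with limma (0.151% of all genes passed). At an unadjusted p under 0.05 there were 12 of 34 (35.3%, against 23.2% of all genes), 10 with a more negative change in cKO and 2 (Srebf2 and Fads3) with a more positive one, and limma voom on recovered reads also called 0. The smallest p belonged to Scd2 (log2 fold change -0.74 ± 0.21 SE, adjusted p = 0.0962), and Acat2 (log2 fold change -0.96 ± 0.28 SE, adjusted p = 0.0962) and Idi1 (log2 fold change -1.22 ± 0.36 SE, adjusted p = 0.103) followed. The larger number of calls in cKO is therefore not by itself a difference between genotypes. The call depends on how libraries are weighted: with sample quality weights, which set cKO_DSS 2 (0.269), control 4 (0.415) and cKO_DSS 1 (0.446) lowest, 16 of 34 passed, beside 3728 of all 13255 genes, and without cKO_DSS 2 there were 5.

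Between the genotypes few of these genes differed. On water 1 of 34 was called, Fads3, lower in cKO, against 0.0905% of all genes, and the median was 0.09 (0.01 over all genes). At an unadjusted p under 0.05 there were 6 (17.6%, against 18.1% of all genes), 5 lower in cKO and 1 higher. All 4 cKO values lay below all 4 control values for 5 of the 34, against 1014 of all 13255 genes. They lay above for 0 of the 34, against 1040 of all genes. After DSS 2 of 34 were called, Fads1 and Fads2, both lower in cKO, against 1.67% of all genes lowered. The fold change after DSS was negative for 30 of 34, with a median of -0.28 (-0.01 over all genes). An unadjusted p under 0.05 was reached by 11 (32.4%, against 20.2% of all genes), 10 of them lower in cKO and 1, Srebf2, higher. In 7 of the 34 all 4 cKO_DSS values lay below all 4 control_DSS values, against 4.88% of all genes.

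**Figure D1:**
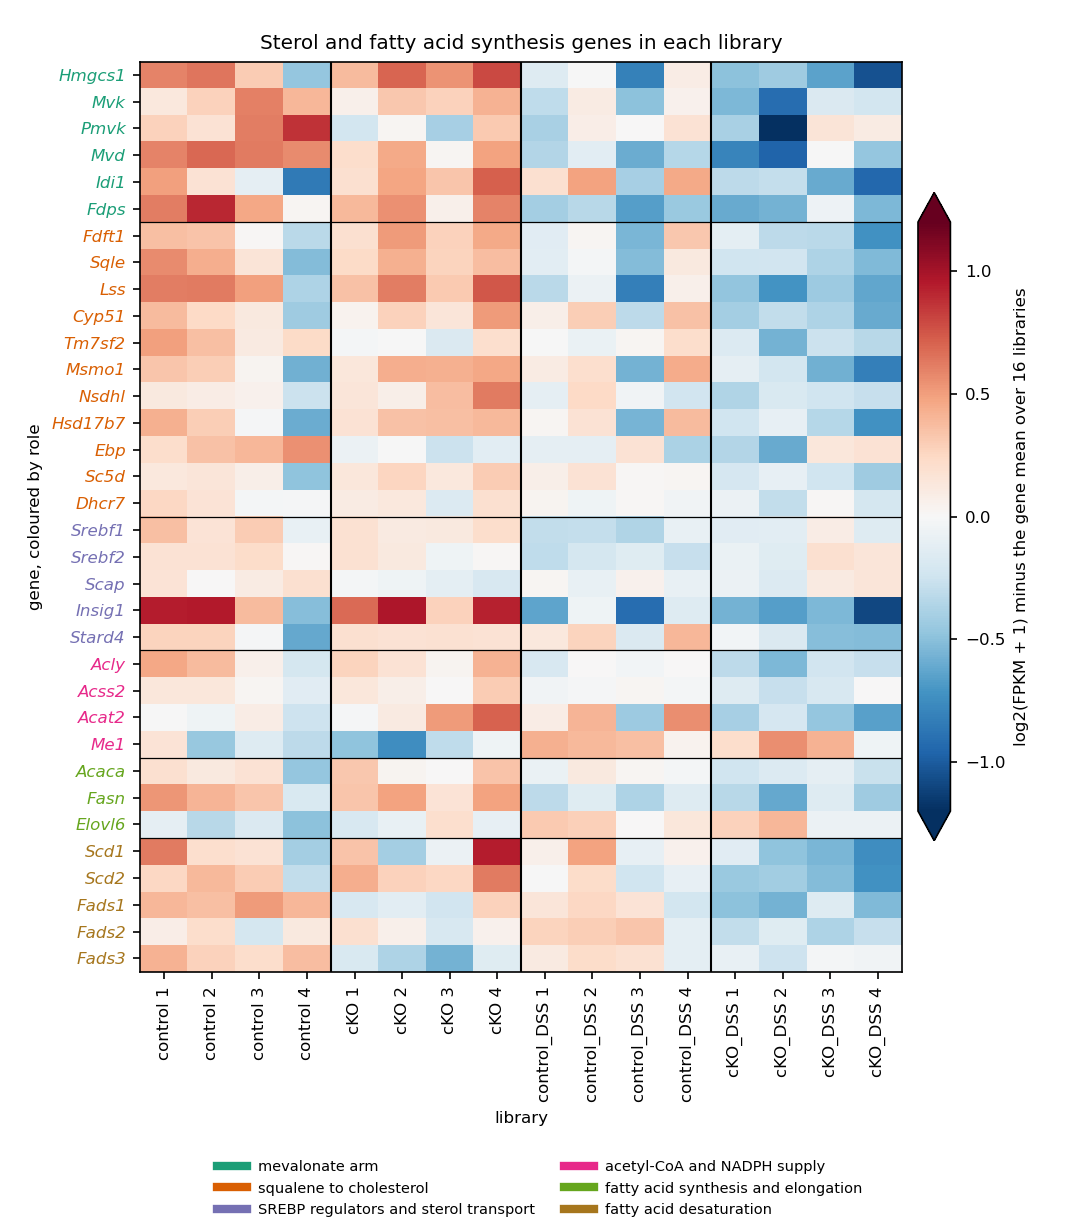
Heat map of log2(FPKM + 1) minus the mean of each gene over the 16 libraries, with genes in rows, coloured by role, and libraries in columns, in 4 groups of 4. Control 4 is low for most genes, unlike control 1 to 3, and the cKO_DSS libraries are below the mean for 27 to 32 of the 34 genes.

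Within groups the libraries were not alike. Set against each gene's mean over the 16 libraries, the median of the 34 genes was 0.14 to 0.35 above it in control 1 to 3, with 27 to 32 genes above, but -0.25 in control 4, with 11 genes above. In cKO the median was 0.12 to 0.38 in the 4 libraries, in control_DSS -0.16 to 0.09, and in cKO_DSS -0.43 to -0.23, with only 2 to 7 genes above the mean. Control 4 was thus nearer to the DSS libraries than to control 1 to 3 in this median and in Dbp, though not in every gene: Mvd was 36.1 FPKM there, beside 36.6, 39.4 and 37.3 in control 1 to 3. Without it, 10 of 34 were called for DSS in control, 22 for DSS in cKO, 4 for genotype after DSS and 0 for genotype on water. The counts over all genes in that fit are not given here.

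The mevalonate arm builds isoprenoid units from acetyl-CoA. Of its 6 genes, with DSS 3 were lower in control and 5 were lower in cKO, while none was called between genotypes. Over all genes 13.5% were lower in control and 6.64% in cKO. Hmgcs1 encodes the synthase that makes HMG-CoA. Hmgcs1 stood at 116, 120.0, 94.4 and 55.1 FPKM in control 1 to 4, 99.9, 125, 112 and 133 in cKO, 68.4, 76.3, 43.2 and 81.2 in control_DSS and 54.03, 56.8, 48.8 and 36.6 in cKO_DSS. Every cKO_DSS value lay below every cKO value, while control 4 overlapped the control_DSS libraries. The change was called in cKO (log2 fold change -1.25 ± 0.24 SE, adjusted p = 0.00319) and not in control (log2 fold change -0.49 ± 0.24 SE, adjusted p = 0.131). Mvd encodes mevalonate diphosphate decarboxylase. Mvd stood at 36.6, 39.4, 37.3 and 36.1 FPKM in control 1 to 4, 27.9, 33.2, 24.4 and 33.8 in cKO, 18.6, 21.8, 15.5 and 18.7 in control_DSS and 13.4, 11.8, 23.8 and 17.1 in cKO_DSS. The water and DSS values did not overlap in either genotype (log2 fold change -0.97 ± 0.17 SE, adjusted p = 0.00173 in control and log2 fold change -0.85 ± 0.17 SE, adjusted p = 0.00435 in cKO). Mvk encodes mevalonate kinase. Mvk stood at 13.98, 15.6, 19.8 and 17.02 FPKM in control 1 to 4, 13.3, 16.1, 15.6 and 17.3 in cKO, 10.1, 13.7, 8.74 and 13.2 in control_DSS and 8.40, 6.26, 11.2 and 10.7 in cKO_DSS. Its fall was called in both genotypes, without overlap (log2 fold change -0.51 ± 0.17 SE, adjusted p = 0.0346 in control and log2 fold change -0.73 ± 0.17 SE, adjusted p = 0.00981 in cKO). Fdps encodes farnesyl diphosphate synthase. Fdps stood at 3.08, 4.01, 2.69 and 1.72 FPKM in control 1 to 4, 2.50, 2.90, 1.78 and 3.02 in cKO, 1.01, 1.12, 0.691 and 0.965 in control_DSS and 0.753, 0.806, 1.55 and 0.840 in cKO_DSS. The DSS values lay below all water values in each genotype, and both falls were called (log2 fold change -0.96 ± 0.18 SE, adjusted p = 0.0026 in control and log2 fold change -0.84 ± 0.18 SE, adjusted p = 0.00646 in cKO). These levels are near the filter, and with limma voom on the recovered reads the changes were -1.66 and -1.49. Fdps lies on the same strand as Gm43738 over 7512 bases, so its count is uncertain. Idi1, the isomerase of the isoprenoid unit, was called in cKO (log2 fold change -0.96 ± 0.26 SE, adjusted p = 0.0213), with an opposite sign and no call in control (log2 fold change 0.25 ± 0.26 SE, adjusted p = 0.481). It shares 22.6% of its sequence with the pseudogene Gm13502 at up to 100% identity. Pmvk, the kinase between Mvk and Mvd, was not called in any comparison, with group means of 7.52 to 13.5 FPKM.

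**Figure D2:**
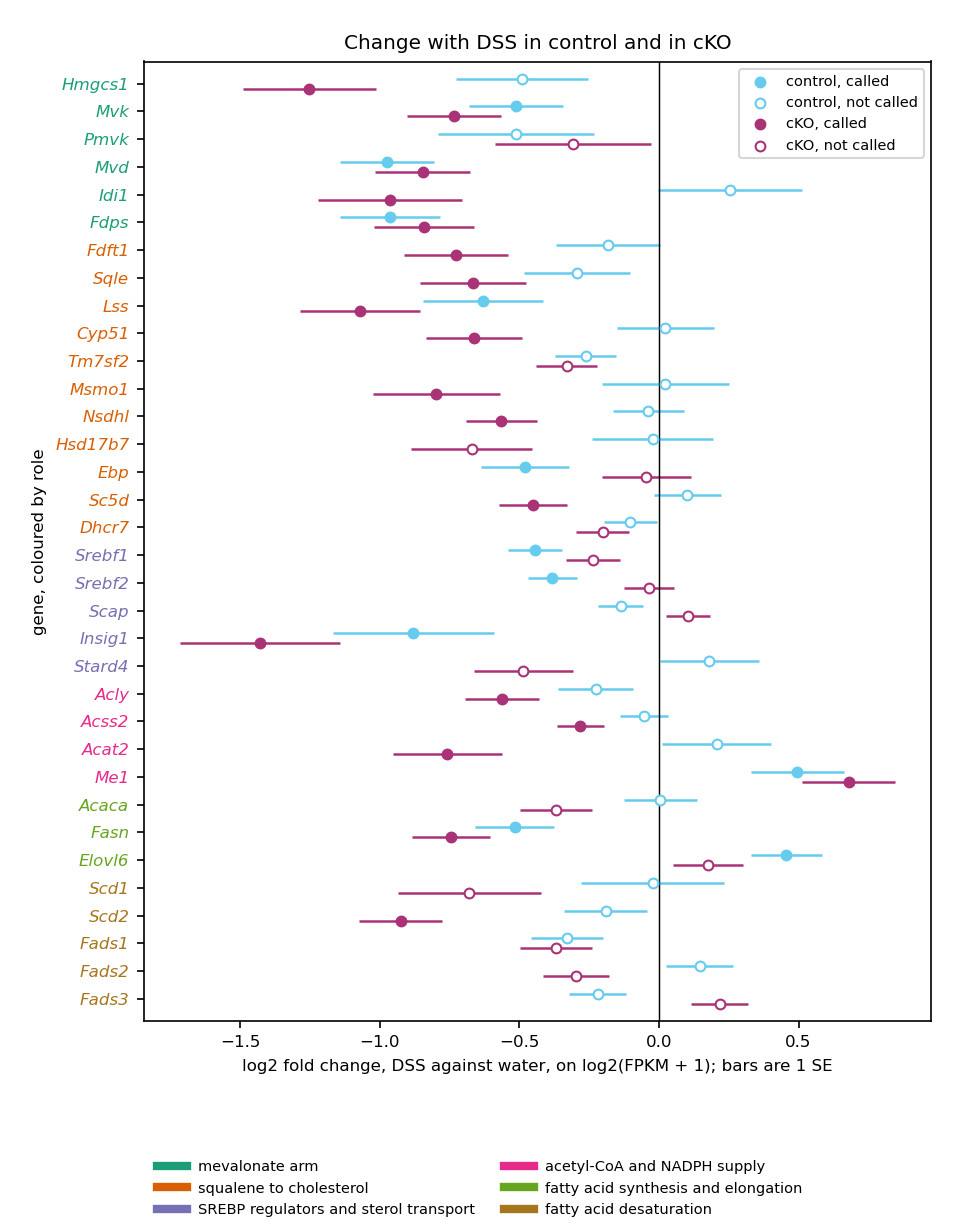
Log2 fold change with DSS for each of the 34 genes, with 1 SE bars, in control and in cKO, filled where the adjusted p was under 0.05. The cKO points lie left of 0 for 30 of 34 genes and the control points for 24 of 34.

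From squalene to cholesterol, 11 genes were measured. With DSS 2 were lower in control, near the 13.5% of all genes, and 7 in cKO, against 6.64%. Lss encodes lanosterol synthase, which closes the sterol rings. Lss stood at 12.1, 12.1, 10.98 and 5.61 FPKM in control 1 to 4, 9.93, 12.1, 9.65 and 13.4 in cKO, 5.83, 7.12, 3.82 and 7.93 in control_DSS and 5.16, 4.18, 5.31 and 4.56 in cKO_DSS. Its fall was called in both genotypes (log2 fold change -0.63 ± 0.21 SE, adjusted p = 0.0405 in control, where control 4 lay within the DSS range, and log2 fold change -1.07 ± 0.21 SE, adjusted p = 0.00449 in cKO, where no value overlapped). Nsdhl encodes a sterol 4-alpha-carboxylate dehydrogenase. Nsdhl stood at 20.3, 19.8, 19.3 and 15.4 FPKM in control 1 to 4, 20.6, 19.5, 24.2 and 29.1 in cKO, 17.1, 22.1, 18.04 and 15.7 in control_DSS and 14.2, 16.2, 15.6 and 15.1 in cKO_DSS. It fell without overlap in cKO (log2 fold change -0.57 ± 0.13 SE, adjusted p = 0.00856) and was not called in control (log2 fold change -0.04 ± 0.13 SE, adjusted p = 0.846). Fdft1 encodes squalene synthase. Fdft1 stood at 49.9, 49.3, 39.1 and 30.8 FPKM in control 1 to 4, 44.3, 55.5, 47.1 and 53.4 in cKO, 35.1, 39.4, 26.1 and 48.7 in control_DSS and 35.5, 31.05, 30.7 and 23.02 in cKO_DSS. It was called in cKO (log2 fold change -0.73 ± 0.19 SE, adjusted p = 0.0175; control log2 fold change -0.18 ± 0.19 SE, adjusted p = 0.484), and as it shares 774 bases with Ctsb, measured at 63.8 to 93.8 FPKM on the opposite strand, its values are uncertain. Cyp51 encodes lanosterol 14-alpha-demethylase. Cyp51 stood at 62.4, 56.5, 52.00 and 35.3 FPKM in control 1 to 4, 49.2, 58.2, 52.8 and 68.7 in cKO, 50.1, 58.8, 38.3 and 61.3 in control_DSS and 35.8, 38.8, 36.8 and 31.2 in cKO_DSS. The change in cKO was called (log2 fold change -0.66 ± 0.17 SE, adjusted p = 0.0192), and in control the groups overlapped (log2 fold change 0.02 ± 0.17 SE, adjusted p = 0.935). Ebp encodes the sterol isomerase. Ebp stood at 28.5, 31.5, 32.5 and 36.3 FPKM in control 1 to 4, 23.3, 24.3, 20.2 and 22.3 in cKO, 22.7, 22.6, 27.7 and 18.6 in control_DSS and 18.98, 15.7, 26.99 and 27.7 in cKO_DSS. It differed in control (log2 fold change -0.48 ± 0.16 SE, adjusted p = 0.0349), without overlap, and was not called in cKO (log2 fold change -0.05 ± 0.16 SE, adjusted p = 0.886). Sqle, squalene epoxidase, Msmo1, a sterol methyl oxidase, and Sc5d, a sterol desaturase, were also called lower in cKO, at -0.67, -0.80 and -0.45 on the log2 scale. Their group means ran from 27.1 to 43.5 FPKM for Sqle, 30.5 to 52.9 for Msmo1 and 15.7 to 21.8 for Sc5d, lowest in cKO_DSS and highest in cKO. Tm7sf2 and Dhcr7, sterol reductases, and Hsd17b7 were called in no comparison, with group means of 4.52 to 7.55, 24.9 to 29.4 and 7.38 to 12.2 FPKM.

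**Figure D3:**
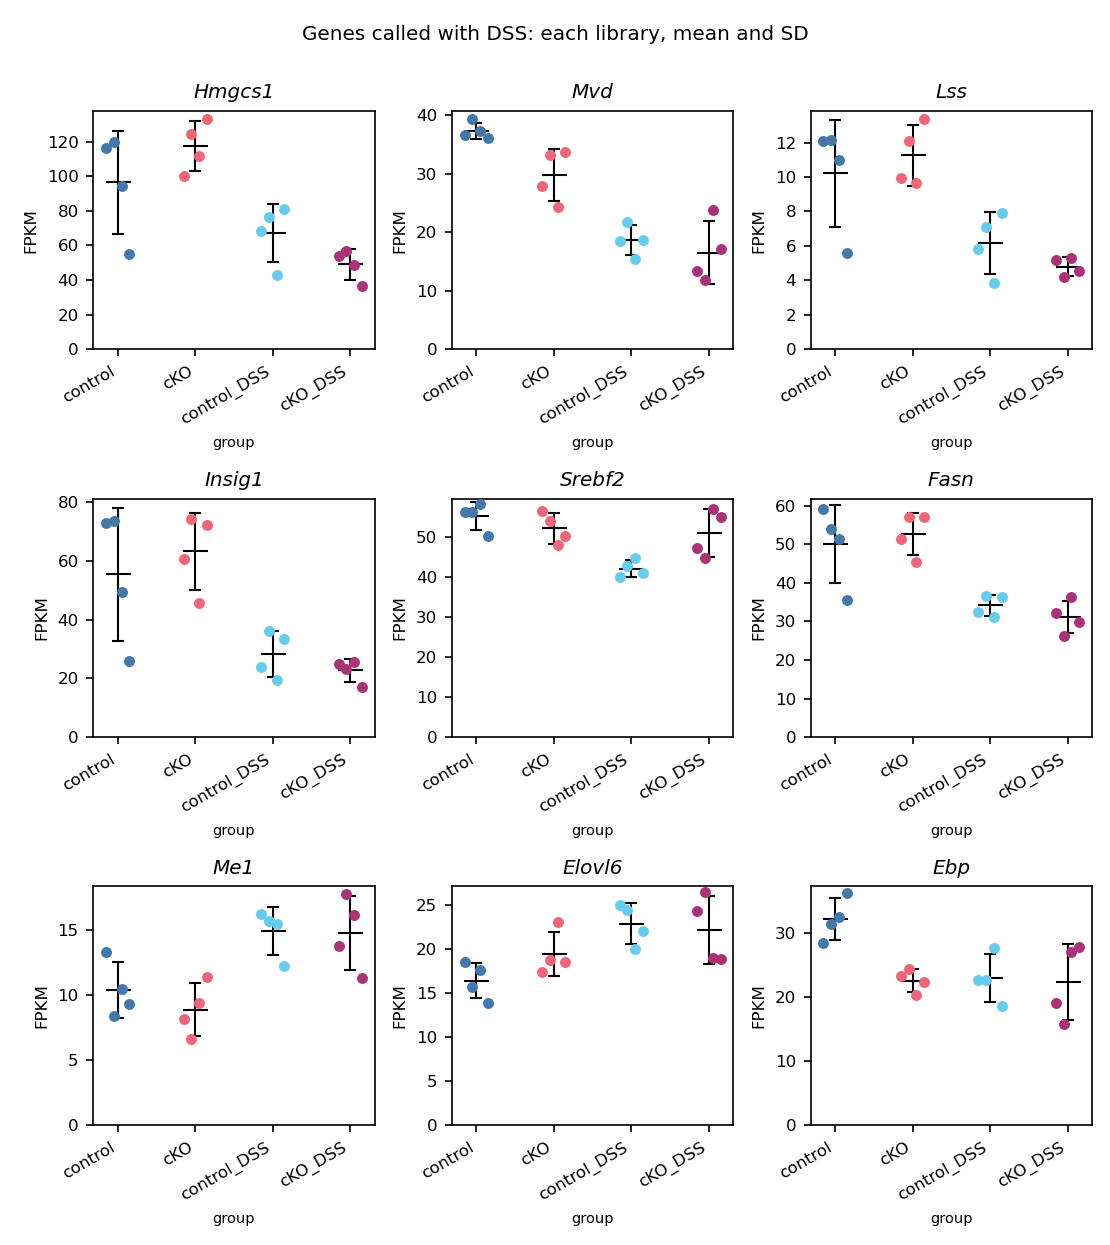
FPKM in each library, with the mean and SD of 4 libraries, for 9 genes called with DSS. In Mvd the water and DSS libraries do not overlap in either genotype, and in Hmgcs1, Lss and Insig1 control 4 is the lowest control library.

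Of the 5 regulators and sterol transporters, Srebf1, Srebf2 and Insig1 were lower with DSS in control, against 13.5% of all genes. In cKO, Insig1 was lower, against 6.64% of all genes. Scap, the escort of SREBP, and Stard4, a carrier of cholesterol, were not called (group means of 9.30 to 10.9 and 39.4 to 54.97 FPKM). Insig1 encodes the sterol-sensing retention protein. Insig1 stood at 73.1, 73.8, 49.3 and 26.1 FPKM in control 1 to 4, 60.7, 74.5, 45.7 and 72.4 in cKO, 23.95, 36.3, 19.5 and 33.6 in control_DSS and 24.97, 23.3, 25.5 and 17.1 in cKO_DSS. It fell in both genotypes (log2 fold change -0.88 ± 0.29 SE, adjusted p = 0.0337 in control and log2 fold change -1.43 ± 0.29 SE, adjusted p = 0.00449 in cKO), with control 4 inside the control_DSS range. Srebf2 encodes SREBP-2. Srebf2 stood at 56.3, 56.2, 58.2 and 50.2 FPKM in control 1 to 4, 56.5, 53.9, 47.97 and 50.3 in cKO, 39.98, 42.7, 44.8 and 40.97 in control_DSS and 47.2, 44.8, 56.9 and 55.1 in cKO_DSS. Control values all exceeded control_DSS values (log2 fold change -0.38 ± 0.09 SE, adjusted p = 0.00784), while the cKO groups overlapped (log2 fold change -0.04 ± 0.09 SE, adjusted p = 0.835). Srebf1 encodes SREBP-1. Srebf1 stood at 31.5, 27.5, 30.4 and 22.9 FPKM in control 1 to 4, 27.8, 26.5, 26.6 and 28.4 in cKO, 19.7, 19.9, 18.7 and 22.9 in control_DSS and 22.1, 22.3, 26.00 and 21.8 in cKO_DSS. Its fall was called in control (log2 fold change -0.44 ± 0.10 SE, adjusted p = 0.00564) and not in cKO (log2 fold change -0.24 ± 0.10 SE, adjusted p = 0.118). After correction for GC content the control changes were -0.13 for Srebf1 and -0.08 for Srebf2, with adjusted p = 0.532 and 0.496, and neither was called.

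Of the 4 genes of acetyl-CoA and NADPH metabolism, 3 were lower and 1 higher with DSS in cKO, and 1 was higher in control. Over all genes 6.64% were lower and 8.07% higher in cKO, and 15% were higher in control. Acly encodes ATP-citrate lyase. Acly stood at 102, 96.5, 77.05 and 63.6 FPKM in control 1 to 4, 89.4, 83.5, 75.5 and 98.8 in cKO, 64.4, 73.96, 72.3 and 74.1 in control_DSS and 59.4, 50.4, 62.9 and 60.9 in cKO_DSS. It fell without overlap in cKO (log2 fold change -0.56 ± 0.13 SE, adjusted p = 0.0121) but was not called in control (log2 fold change -0.23 ± 0.13 SE, adjusted p = 0.214). Acat2 encodes an acetyl-CoA acetyltransferase, which uses acetyl-CoA rather than supplying it. Acat2 stood at 21.1, 20.3, 22.5 and 17.6 FPKM in control 1 to 4, 20.8, 22.8, 30.5 and 35.2 in cKO, 22.5, 28.3, 15.3 and 31.4 in control_DSS and 15.7, 18.2, 15.01 and 13.1 in cKO_DSS. It was called in cKO (log2 fold change -0.76 ± 0.20 SE, adjusted p = 0.0185) and not in control (log2 fold change 0.21 ± 0.20 SE, adjusted p = 0.451), and shares 65.6% of its sequence with Acat3 and 19.8% with Tcp1, so the count is uncertain. Me1 encodes cytosolic malic enzyme, a source of NADPH. Me1 stood at 13.3, 8.37, 10.5 and 9.27 FPKM in control 1 to 4, 8.13, 6.63, 9.36 and 11.4 in cKO, 16.3, 15.7, 15.4 and 12.2 in control_DSS and 13.8, 17.8, 16.1 and 11.3 in cKO_DSS. It was the one member higher with DSS in both genotypes (log2 fold change 0.50 ± 0.17 SE, adjusted p = 0.0384 in control and log2 fold change 0.68 ± 0.17 SE, adjusted p = 0.0142 in cKO), and the water and DSS values overlapped in each. About 49.8% of Me1 matches the pseudogene Gm7049. Acss2 encodes acetyl-CoA synthetase. Acss2 stood at 15.7, 15.7, 14.5 and 12.9 FPKM in control 1 to 4, 15.7, 14.97, 14.2 and 17.7 in cKO, 13.8, 14.1, 14.4 and 14.00 in control_DSS and 12.7, 11.5, 12.3 and 14.3 in cKO_DSS. It was called in cKO (log2 fold change -0.28 ± 0.08 SE, adjusted p = 0.0373) and not in control (log2 fold change -0.05 ± 0.08 SE, adjusted p = 0.665). Water and DSS values overlapped in both genotypes.

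Of the 3 genes of fatty acid synthesis and elongation, 1 was lower and 1 higher with DSS in control, and 1 was lower in cKO. The shares of all genes were 13.5% lower and 15% higher in control and 6.64% lower in cKO. Fasn encodes fatty acid synthase. Fasn stood at 59.1, 54.1, 51.3 and 35.6 FPKM in control 1 to 4, 51.4, 57.05, 45.6 and 57.05 in cKO, 32.5, 36.6, 31.2 and 36.4 in control_DSS and 32.1, 26.3, 36.4 and 29.9 in cKO_DSS. It fell in both genotypes (log2 fold change -0.52 ± 0.14 SE, adjusted p = 0.0153 in control and log2 fold change -0.74 ± 0.14 SE, adjusted p = 0.00315 in cKO), without overlap in cKO. Elovl6 encodes an elongase. Elovl6 stood at 18.5, 15.7, 17.6 and 13.9 FPKM in control 1 to 4, 17.3, 18.8, 23.1 and 18.5 in cKO, 25.05, 24.5, 19.97 and 22.05 in control_DSS and 24.4, 26.5, 18.99 and 18.9 in cKO_DSS. It rose in control without overlap (log2 fold change 0.46 ± 0.13 SE, adjusted p = 0.0171), and was not called in cKO (log2 fold change 0.18 ± 0.13 SE, adjusted p = 0.397). Acaca, acetyl-CoA carboxylase, was not called, at group means of 3.92 to 5.39 FPKM, and 64.3% of it matches the pseudogene Gm5182.

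The desaturases hold the 3 genotype calls. Fads3, Fads2 and Fads1 lie in that order on mm10 chromosome 19, between 10041569 and 10196877, with gaps of 2.65 and 81.1 kb. Fads3 encodes a fatty acid desaturase of this family. Fads3 stood at 10.4, 9.35, 8.88 and 10.03 FPKM in control 1 to 4, 6.51, 5.62, 4.75 and 6.73 in cKO, 8.21, 8.98, 8.67 and 6.86 in control_DSS and 7.04, 6.21, 7.41 and 7.27 in cKO_DSS. The cKO values were all below the control values on water (log2 fold change -0.63 ± 0.10 SE, adjusted p = 0.0287), and after DSS the groups overlapped (log2 fold change -0.20 ± 0.10 SE, adjusted p = 0.288). Fads1 encodes the delta-5 desaturase. Fads1 stood at 4.43, 4.27, 4.88 and 4.43 FPKM in control 1 to 4, 2.61, 2.76, 2.52 and 3.98 in cKO, 3.56, 3.91, 3.61 and 2.55 in control_DSS and 1.93, 1.78, 2.69 and 1.85 in cKO_DSS. It was lower in cKO after DSS, where cKO_DSS 3 overlapped control_DSS 4 (log2 fold change -0.52 ± 0.13 SE, adjusted p = 0.0374), and on water the groups did not overlap but the test was not passed (log2 fold change -0.49 ± 0.13 SE, adjusted p = 0.124). Fads2 encodes the delta-6 desaturase. Fads2 stood at 122, 134, 99.8 and 126 FPKM in control 1 to 4, 132, 120.4, 101 and 120.0 in cKO, 139, 142, 146 and 107 in control_DSS and 94.4, 104, 89.5 and 95.4 in cKO_DSS. After DSS the groups did not overlap (log2 fold change -0.47 ± 0.12 SE, adjusted p = 0.045), and on water there was no call (log2 fold change -0.02 ± 0.12 SE, adjusted p = 0.939). Scd2 encodes a stearoyl-CoA desaturase that introduces the double bond of oleate. Scd2 stood at 301, 333, 314 and 207 FPKM in control 1 to 4, 345, 308, 302 and 391 in cKO, 253, 297, 215 and 238 in control_DSS and 186, 190.0, 176 and 153 in cKO_DSS. It fell with DSS in cKO (log2 fold change -0.93 ± 0.15 SE, adjusted p = 0.001) without overlap, and was not called in control (log2 fold change -0.19 ± 0.15 SE, adjusted p = 0.352). Scd2 shares 11.4% of its sequence with Scd1, which was not called in any comparison and had group means of 5.18 to 9.41 FPKM. Each genotype call was lost in fits on only the 2 groups compared, with adjusted p = 0.0609 for Fads3, 0.11 for Fads1 and 0.107 for Fads2. Fads3 and Fads1 were also lost with a replicate block, with adjusted p = 0.0751 and 0.0617, and each of the 3 was lost when single libraries were left out.

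**Figure D4:**
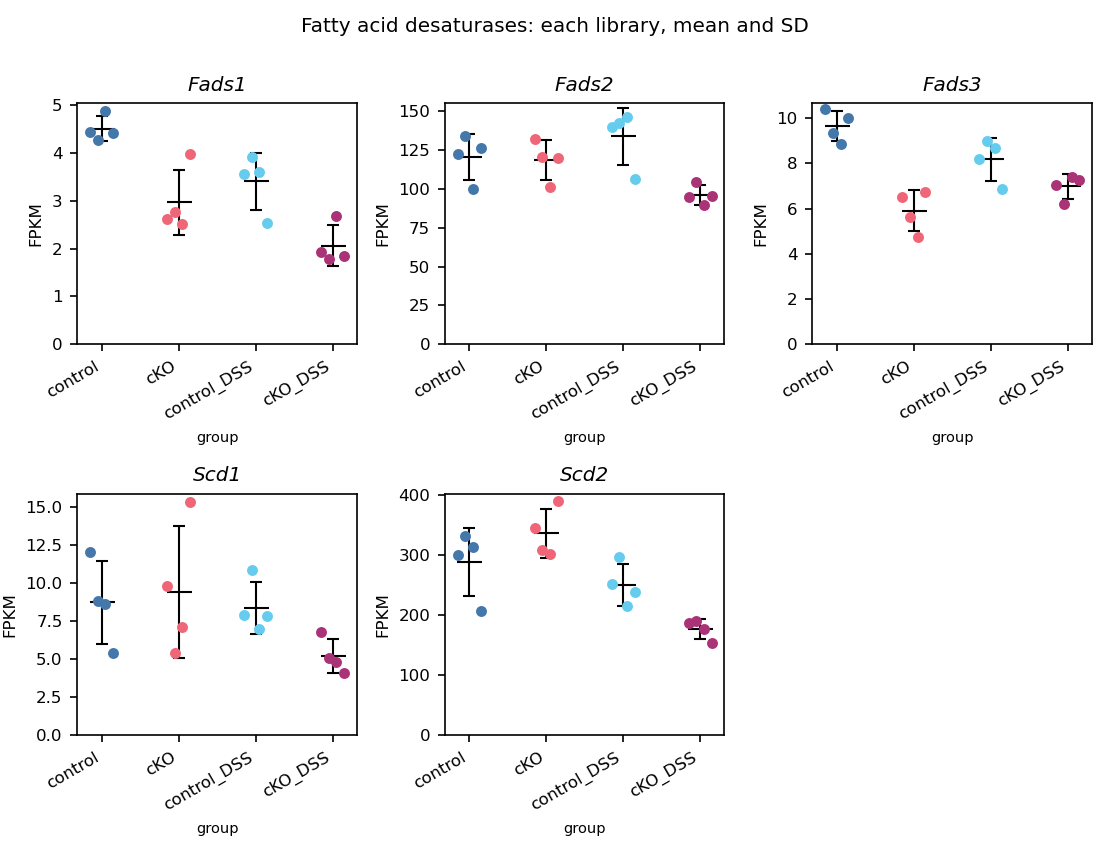
FPKM of the 5 desaturases in each library, with the mean and SD of 4 libraries. Fads3 is lower in all cKO than in all control libraries on water, and Fads2 lower in all cKO_DSS than in all control_DSS libraries.

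Other genes of the pathway were taken from lists written with earlier results of these data known. Of 16 other sterol genes, 6 were lower with DSS in cKO, among them Aacs, acetoacetyl-CoA synthetase (-0.68, adjusted p = 0.0129), and Tmem97 (-0.43, adjusted p = 0.0205), and 1 was higher, Insig2 (0.35, adjusted p = 0.0475). In control 4 were higher with DSS, among them Ggps1 (0.58, adjusted p = 0.00934), Erlin2 (0.42, adjusted p = 0.0107) and Mbtps2, a protease that frees SREBP (0.45, adjusted p = 0.0249). Of 19 other lipogenic genes that passed the filter, 3 were lower with DSS in each genotype and 3 were higher in control. In control 13.5% of all genes were lower and 15% higher, and in cKO 6.64% were lower and 8.07% higher, so the control counts of this list are near the background. Mlxipl, which encodes the glucose-responsive factor ChREBP, fell in both (-0.96, adjusted p = 0.00186 in control and -0.75, adjusted p = 0.009 in cKO), as did Gpam, the first enzyme of glycerolipid synthesis (-0.41, adjusted p = 0.0106 in control and -0.71, adjusted p = 0.000527 in cKO). Of 5 LXR and sterol efflux genes above the filter, Nr1h2 fell with DSS in control (-0.59, adjusted p = 0.0243) and none was called in cKO. After DSS, Mylip (-0.49, adjusted p = 0.0359) and Abcg5 (-0.99, adjusted p = 0.0325) were lower and Npc1 (0.31, adjusted p = 0.0432) and Agpat2 (0.52, adjusted p = 0.0374) higher in cKO than in control. Abcg5 lies near the filter, at means of 1.58 FPKM in control_DSS and 0.304 in cKO_DSS, so its change rests on few reads. None of these lists held a call between genotypes on water.

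GC content moved with these results. Across the 34 genes, whose GC content of 41.9 to 59.1% had a median of 49.6% against 49.5% over all genes, the Spearman correlation of GC content with the fold change was -0.55 for DSS in control, 0.28 for DSS in cKO, -0.70 for genotype on water and 0.41 for genotype after DSS. Over the 12867 genes with a GC value it was -0.53, 0.05, -0.52 and 0.38, and for the interaction 0.71 in the 34 and 0.59 in all. The points of such a correlation share their libraries, and cKO_DSS 3 and 4 had correlations of 0.40 and 0.39 between GC content and level relative to the mean, while cKO_DSS 1 and 2 had -0.26 and -0.38. With each library corrected for GC content, 7 genes were called for DSS in control (6 lower: Hmgcs1, Mvd, Fdps, Lss, Ebp and Insig1; 1 higher: Scap) and 23 for DSS in cKO (22 lower and Me1 higher). With the Y-linked level as a covariate, 3 were called for DSS in control (Mvd, Fdps and Me1) and 2 for DSS in cKO (Insig1 and Me1). Since that level follows treatment, the effect of DSS and of the sex-linked difference cannot be told apart from these libraries. Counts over all genes under these corrections are not given here, so a change among the 34 is not told from a general one.

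**Figure D5:**
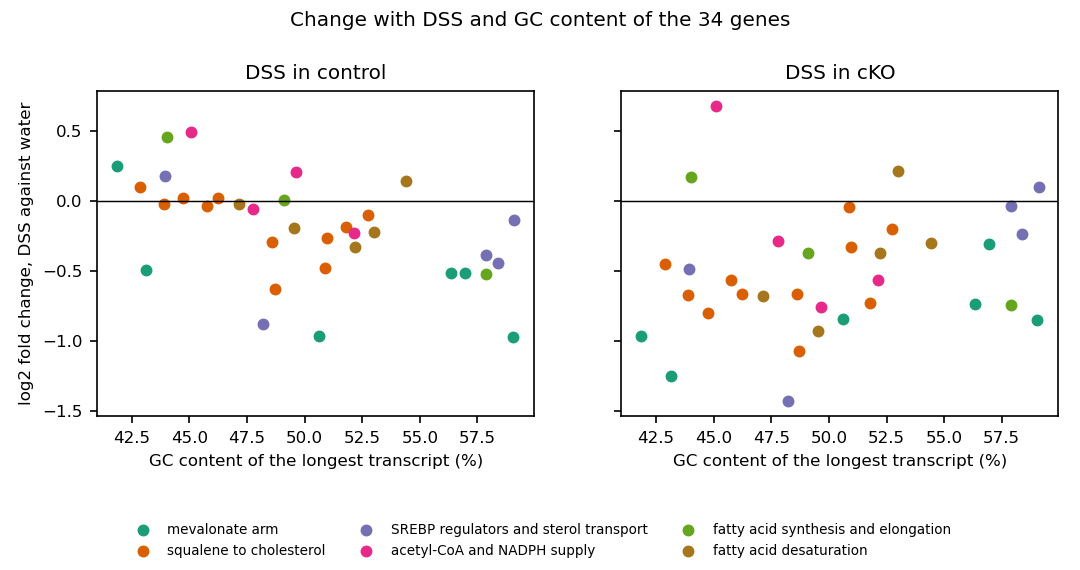
Log2 fold change with DSS against GC content of the longest transcript, 1 point for each of the 34 genes, coloured by role, in control and in cKO. In control the genes of higher GC content tend to lie lower (Spearman -0.55), and in cKO the correlation is 0.28.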

How the data were processed

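RNA sequencing covered 16 libraries, grouped by the labels. The deposited values are FPKM per gene. The submitters' processing notes name the mm10 build, featureCounts (1.5.0-p3) and DESeq2 (1.20.0). The aligner and any use of strand are not stated in the sources at hand. FPKM times gene length gave whole reads for 100% of values, within 0.05. The test was limma 3.58.1 (R 4.3.3) on log2(FPKM + 1), a mean per group in 1 fit to all 16 libraries, eBayes with a trend, two-sided, with Benjamini-Hochberg adjustment over 13255 genes in each of 5 comparisons, with calls at an adjusted p under 0.05. GC content came from GENCODE M21 (97.1% of kept genes), and GC correction was a loess per library with a span of 0.5. Shared sequence was at least 95% identity over 150 bases (BLAST 2.17.0). The fit was also run on simulated data in which all genes and libraries had the same spread beyond counting. The libraries here were of unlike quality, so that run does not bear on the calls. Members and lists were chosen with earlier results of these data known. Genes were given in full where called, at most 4 per role and comparison by smallest p. Replicate numbers were not treated as pairs in the main fit. Over 24 same-number pairs the correlation of deviations was -0.20 to 0.30, and 6 exceeded 0.1. Pairs of unlike number ran from -0.25 to 0.28. These ranges are alike, but they cannot exclude a pairing. Some results for other pathway genes are not reported here.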

Additional observations from a re-analysis of the deposited data

Results flagged for a closer look

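In 9 of 136 groups of 4 libraries (34 genes in 4 groups), 1 library stood apart from the other 3, with a gap to its nearest neighbour above the 95% critical value of Dixon's ratio, which chance gives in about 1 in 20 groups. Fdps was 1.55 FPKM in cKO_DSS 3, against 0.753 to 0.840 in the other cKO_DSS libraries. Srebf1 was 26.0 FPKM in cKO_DSS 3, against 21.8 to 22.3. Fads1 was 2.69 FPKM in cKO_DSS 3, against 1.78 to 1.93, and 3.98 FPKM in cKO 4, against 2.52 to 2.76 in the other cKO libraries. Msmo1 was 44.9 FPKM in cKO 1, against 54.9 to 56.3, and Hsd17b7 was 10.9 FPKM there, against 12.5 to 12.8. Sc5d was 13.1 FPKM in control 4, against 19.7 to 20.8, and Acaca 3.08 FPKM, against 5.12 to 5.43. Fads2 was 107 FPKM in control_DSS 4, against 139 to 146.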

How the results depend on the processing

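Of the 33 fold changes called for single genes, 0 changed sign in the alternatives run. Genes called out of 34 (1 for genotype on water, 2 for genotype after DSS, 11 for DSS in control, 19 for DSS in cKO, 0 for the interaction) moved as follows, and the cause was not tested. Without a filter there were 0, 0 and 6 for the first 3, and for genotype after DSS 1 with a filter at 5 FPKM and 1 with quantile normalization. With a replicate block there were 0 for genotype on water and 1 for genotype after DSS, and no other count moved by over 1.5 times. Fits on the 2 groups compared gave 0 in both genotype comparisons. Sample quality weights gave 14 for genotype after DSS and 16 for the interaction. GC correction gave 7 for DSS in control, and with a replicate block as well 6. The Y-linked level as a covariate gave 3 for DSS in control and 2 for DSS in cKO, and as a mean of log2 values, chosen after seeing the data, 0 and 0. Without cKO_DSS 3 and 4 there were 0 for genotype after DSS and 12 for DSS in cKO, and without control 4 and control_DSS 2 there were 0 in both genotype comparisons. GC correction with these libraries left out, chosen after seeing the data, gave 0 in both genotype comparisons in either case, and 7 for DSS in control without cKO_DSS 3 and 4.

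Leaving out 1 library at a time gave 0 to 1 for genotype on water, 0 to 4 for genotype after DSS, 5 to 12 for DSS in control, 12 to 22 for DSS in cKO and 0 to 5 for the interaction. DSS in control had 5 without control_DSS 1, 6 without control 2 or control 3 and 7 without control_DSS 3. DSS in cKO had 12 without cKO 4 or cKO_DSS 4. The interaction had 5 without cKO_DSS 2 (Idi1, Sc5d, Srebf2, Acat2 and Scd2) and 1 without control_DSS 3. The edgeR alternative was not run, because the deposited unit is FPKM. Low levels, such as Fdps near 1 FPKM, rest on few reads.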
